A study of Mus musculus with 28 samples.

Results

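The genes described here were among the deepest falls after kainic acid in mouse hippocampal CA1: Ankrd63, Arhgap12, Htr5b, Lct, Magee2, St6gal2, Tox3, Zkscan16 and Syna. They are 9 of the 14711 genes in the deposited tables. They were chosen by the measured change after kainic acid: each was among the largest falls in at least 1 of 3 comparisons of kainic acid with PBS, namely CaMK2a IP, CaMK2a input or PV input. The falls in those 3 comparisons are therefore given as a description, without a test. The comparison in PV IP was not used in the choice and is tested. The comparisons of IP with input are other contrasts than those of the choice, but they are built from libraries that the choice used, so their p-values and counts for the 9 genes are no independent evidence.

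The RNA came from C57BL/6 mice 3 to 4 weeks old. All animals carried LSL-Rpl22-HA/+, which gives an HA-tagged ribosomal protein after Cre removes a stop cassette, and either CaMK2a-Cre/+ or PV-Cre/+. CaMK2a-Cre acts mainly in excitatory neurons and PV-Cre in parvalbumin interneurons. Each line was given kainic acid, which excites neurons through glutamate receptors and causes seizures, or PBS, and per the labels tissue was taken after 6 h in both cases, while the column names of the deposited tables give the PBS libraries an hour of 0. The time after PBS is therefore uncertain. A pool of 4 mice in the CaMK2a line or of 9 to 10 mice in the PV line gave 1 lysate, from which a small part was kept as input RNA and the rest was taken through an anti-HA IP to isolate tagged ribosomes with their mRNA. The 8 groups held 3 libraries each in the CaMK2a line and 4 each in the PV line, 28 in all. IP and input libraries of the same number come from the same pool and are not independent. The libraries are amplified from 20 ng of RNA in the CaMK2a line and from 2.5 ng in the PV line.

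Seizures switch on a burst of transcription in neurons, which immediate early genes such as Fos lead, and in the same hours other transcripts decline. A transcript declines when its synthesis slows, when its decay quickens or when the cells that hold it are lost, and RNA levels in tissue do not separate these. In bulk samples fewer cells of a type and less RNA per cell cannot be told apart. In a ribosome pull-down the IP reports mRNA on ribosomes of the tagged cells, together with some RNA of other cells that is carried along, and the input reports all cells of the tissue.

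Htr5b encodes a serotonin receptor of the G protein-coupled family. St6gal2 encodes a sialyltransferase, which adds sialic acid to glycans. Lct encodes lactase, a glycosidase best known from the intestine. Arhgap12 encodes a GTPase-activating protein that is known to act at excitatory synapses. Ankrd63 is named for its ankyrin repeats and Magee2 for its MAGE domain. Tox3 and Zkscan16 encode nuclear proteins, an HMG-box factor and a zinc finger protein. Syna, syncytin A, derives from a retroviral envelope gene and is known for cell fusion in the placenta.

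The 250 bases upstream of a transcription start in the RefSeq promoter table (GRCm38.p6) were matched for 6 of the 9 genes. The windows of 3 genes are printed because they show how unlike the upstream regions of genes that fell together were: those of the single-exon genes Ankrd63 and Magee2, and that of Lct. Each is written 5′ to 3′ on the strand of the gene and ends at the base before the start. Capitals mark GC boxes (GGGCGG, or CCGCCC on the other strand) and, in Ankrd63, a TATA box (TATAAA). On GRCm38.p6, Ankrd63 is at chr2:118703964-118704213, Magee2 at chrX:104857268-104857517 and Lct at chr1:128328319-128328568, all on the minus strand.
Ankrd63: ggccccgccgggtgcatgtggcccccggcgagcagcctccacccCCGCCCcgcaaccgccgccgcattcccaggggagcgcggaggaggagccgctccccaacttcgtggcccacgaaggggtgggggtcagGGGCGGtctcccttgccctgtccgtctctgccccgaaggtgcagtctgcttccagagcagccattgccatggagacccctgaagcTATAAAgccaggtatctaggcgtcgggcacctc
Magee2: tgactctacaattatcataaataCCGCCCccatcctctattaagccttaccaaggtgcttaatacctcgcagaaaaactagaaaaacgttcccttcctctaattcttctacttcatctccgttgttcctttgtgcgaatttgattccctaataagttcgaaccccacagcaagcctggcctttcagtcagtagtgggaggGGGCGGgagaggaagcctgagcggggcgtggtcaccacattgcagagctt
Lct: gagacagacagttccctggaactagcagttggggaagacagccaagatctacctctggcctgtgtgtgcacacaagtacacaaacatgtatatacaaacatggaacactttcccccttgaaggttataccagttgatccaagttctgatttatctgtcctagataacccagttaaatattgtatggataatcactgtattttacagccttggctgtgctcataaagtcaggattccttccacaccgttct

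The Ankrd63 window was 70% G and C, with 19 CpG dinucleotides, 2 GC boxes and a TATA box whose first base lies at -33. The Magee2 window was 48% G and C with 9 CpG and 2 GC boxes. The Lct window was 42.8% G and C with 1 CpG, and it held none of the motifs searched. The 3 windows not printed, those of St6gal2, Syna and Tox3, had 58.4%, 54% and 84.4% G and C. These 3 lie inside the listed span of their gene rather than before it, whereas the 3 printed end at the base before it. Over 32851 RefSeq promoter windows of the same length the median was 52.4%, with quartiles at 45.2% and 61.2%. The GC box was present in 4 of the 6 windows (Ankrd63, Magee2, St6gal2 and Tox3) and in 32.7% of all windows, and the TATA box in 1 of 6 and in 12.4%. None of the 6 windows held the full cyclic AMP response element TGACGTCA (1.55% of all windows), the AP-1 letters TGANTCA (6.75%), the E-box CACGTG (6.02%) or the letters CCAAT (33.8%), on either strand. GC box matches may overlap each other, as 2 of the 4 in Tox3 do. These are matches of letters in 1 window per gene and nothing more.

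All coordinates are on mm10. Htr5b lies on the minus strand of chromosome 1 at chr1:121509758-121528465, and Lct on the minus strand of the same chromosome at chr1:128284764-128328318. Ankrd63 occupies chr2:118699103-118703963, Zkscan16 chr4:58943568-58959738, Syna chr5:134557254-134577074, Tox3 chr8:90247037-90349073, St6gal2 chr17:55444361-55514581, Arhgap12 chr18:6024448-6136098 and Magee2 chrX:104854952-104857267. St6gal2 and Zkscan16 lie on the plus strand, and the other 7 on the minus strand. Ankrd63 and Magee2 consist of 1 exon, a structure that 4.29% of all genes in the tables share, and Htr5b of 2 exons. The listed lengths ran from 2019 bases for Htr5b to 8942 bases for St6gal2, with a median of 4861 bases against 3124 for all genes. In the GENCODE M21 annotation Syna shares 310 exonic bases with an antisense gene, Gm42884, and the use of strand in the counting is not given in the sources used here, so reads of the 2 genes cannot be told apart there. The other 8 genes share no exonic base with another gene.

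Whole-series facts that bear on these values are few. Summed gene counts ran from 6.06 M to 15.8 M reads per library, and all 9 genes were present in all 6 tables. Pvalb, the defining gene of the PV line, was 13-fold higher in PV IP than in PV input after PBS, and the interneuron gene Gad1 was 6.08-fold higher, while in CaMK2a IP both were lower than in input, at -3.07 ± 0.17 (SE, log2) and -2.59 ± 0.09. Camk2a itself was 0.20 ± 0.06 higher in CaMK2a IP than in input and the excitatory marker Slc17a7 was lower in CaMK2a IP at -0.41 ± 0.07. Of 11 CA1 pyramidal markers, which include both, 10 were higher in CaMK2a IP after PBS and 1, Slc17a7, was lower. Their median log2 ratio was 0.83, where 32.6% of all genes were higher and 31.6% lower. PV IP still held Camk2a at 4409 ± 590 CPM (SD, n = 4) after PBS, against 7995 ± 656 CPM in PV input. Fos was 116-, 154-, 102- and 202-fold higher after kainic acid in CaMK2a IP, CaMK2a input, PV input and PV IP. PV replicate 4 stands apart from PV replicates 1 to 3, for instance with Slc17a7 at 1216 CPM in the PBS input against 510 to 598 CPM in the other 3, and values without it are given where they bear on a result. The p-values measure the spread between pools of mice.

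Levels are given as CPM, counts scaled to a common library total with TMM factors over all 28 libraries. Htr5b had 35.9, 31.2 and 40.5 CPM in the PBS libraries of CaMK2a IP and 5.62, 4.6 and 7.31 CPM after kainic acid. In CaMK2a input it went from 25.8, 26.6 and 25.5 CPM to 8.97, 4.56 and 5 CPM, and in PV input from 16.9, 16.8, 15.5 and 16.7 CPM to 3.99, 0.679, 1.81 and 3.6 CPM. In these 3 fractions every kainic acid library lay below every PBS library, and the log2 changes were -2.53 ± 0.19, -2.0 ± 0.22 and -2.66 ± 0.41 (SE). The PV input of Htr5b after kainic acid rests on 6 to 41 reads per library.

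St6gal2 was the most abundant of the 9 genes in CaMK2a IP by CPM, at 348, 336 and 367 CPM after PBS and 68.5, 112 and 83.2 CPM after kainic acid. Its CaMK2a input level went from 87.2, 87.3 and 98.9 CPM to 18.2, 30.5 and 22.9 CPM, and the log2 change was nearly the same in both fractions, -1.91 ± 0.15 and -1.86 ± 0.16. In PV input the libraries overlapped, with 59.6, 65.3, 62.4 and 40.5 CPM after PBS and 25.3, 41.2, 34.8 and 12.5 CPM after kainic acid (log2 change -0.96 ± 0.31). Replicate 4 was the lowest of both groups. The kainic acid library was the lower in 4 of 4 same-numbered pairs, which share only a number.

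Lct stood at 38.5 to 40.8 CPM in the PBS libraries of CaMK2a IP and at 7.09 to 11.5 CPM after kainic acid. In CaMK2a input it went from 32.1 to 42.7 CPM down to 4.66 to 9.76 CPM, and in PV input from 24.8 to 34.7 CPM down to 8.15 to 9.9 CPM. The groups did not overlap in any of these, and the log2 changes were -2.12 ± 0.19, -2.40 ± 0.23 and -1.64 ± 0.20.

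Arhgap12 had 260, 243 and 228 CPM in CaMK2a IP after PBS and 57, 74.7 and 53.5 CPM after kainic acid. In CaMK2a input the same pools gave 38.6, 40.9 and 41.9 CPM against 18.5, 19.7 and 17.1 CPM. The log2 change was -1.90 ± 0.13 in IP and -1.06 ± 0.14 in input, without overlap in either. In PV input it was -1.18 ± 0.29, from 88.4, 89.6, 80.1 and 45 CPM to 43.1, 42.6, 26.6 and 18.3 CPM, and replicate 4 was again the lowest of each group.

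Ankrd63, whose level per length in CaMK2a input after kainic acid was the lowest of the 9 genes, went from 76.2, 85.2 and 76 CPM to 11.8, 24.4 and 14.4 CPM in CaMK2a IP, and from 27, 25 and 31.3 CPM to 4.43, 4.46 and 3.63 CPM in CaMK2a input. In PV input 15.5, 16.8, 23.6 and 23.7 CPM after PBS stood against 4.73, 3.96, 3.02 and 4.22 CPM after kainic acid. The log2 changes were -2.14 ± 0.22, -2.65 ± 0.20 and -2.28 ± 0.26, and in none of the 3 did the groups overlap.

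For Tox3 the change was deepest in CaMK2a IP. There it went from 23.1, 26.6 and 25.4 CPM to 7.45, 2.63 and 4.66 CPM (log2 change -2.28 ± 0.29), and in CaMK2a input from 17.9, 18.1 and 17.7 CPM to 8.04, 7 and 6.66 CPM (-1.24 ± 0.19). In PV input the groups overlapped, at 22.8, 23.8, 26.1 and 15.8 CPM against 15.7, 13.5, 19 and 10.6 CPM (-0.56 ± 0.24). Kainic acid was the lower in 4 of 4 same-numbered pairs, which share only a number.

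Zkscan16 went from 51.7 to 56.5 CPM down to 16.4 to 20.8 CPM in CaMK2a IP (log2 change -1.48 ± 0.13), from 29.4 to 35.5 CPM down to 6.51 to 8.6 CPM in CaMK2a input (-1.94 ± 0.18) and from 51 to 70.3 CPM down to 8.79 to 24 CPM in PV input (-1.66 ± 0.27). Magee2 changed by -1.59 ± 0.14, -1.96 ± 0.16 and -1.94 ± 0.28 in the same order. Syna showed its smallest change in CaMK2a IP, -0.86 ± 0.24, where its level was low, at 12.6, 18.2 and 12.4 CPM after PBS and 6.01, 9.63 and 6.67 CPM after kainic acid. In the inputs it changed by -1.78 ± 0.17 and -1.59 ± 0.24.

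**Figure D1:**
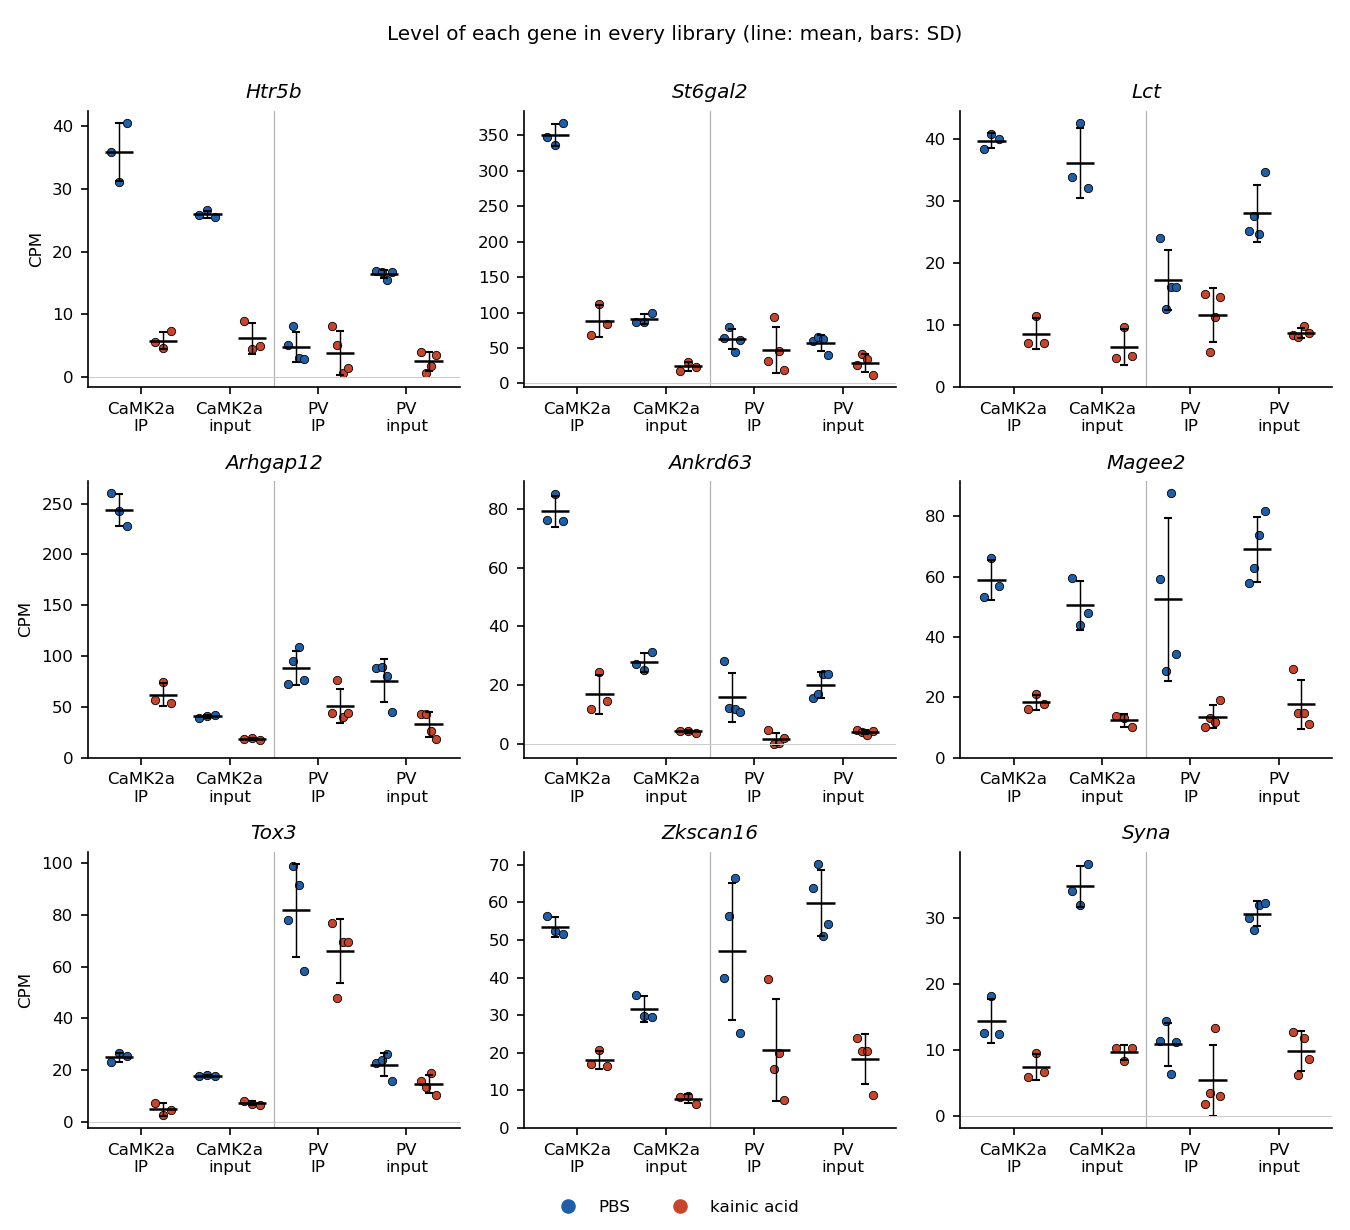
Level of each of the 9 genes in every library, in CPM on the vertical axis, with 1 point per library, PBS in blue and kainic acid in red, a line at the mean and bars for the SD. In both CaMK2a fractions all kainic acid points lie below all PBS points for all 9 genes, while in PV IP only Ankrd63 and Magee2 show no overlap.

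Over the 9 genes the median log2 change was -1.91 in CaMK2a IP, -1.94 in CaMK2a input and -1.64 in PV input, where the median of all genes tested was 0.01, -0.02 and -0.02. The groups did not overlap, kainic acid below PBS, in 9, 9 and 7 of 9 genes, against 29.1%, 28.4% and 8.86% of all genes tested. The choice itself asked for no overlap, so these counts are a description and no excess is read from them. In PV input kainic acid was the lower in 4 of 4 same-numbered pairs for all 9 genes. For the 7 genes without overlap there any pairing gives this result, and PV input served the choice. The labels tie no number across treatments, so these pairs are a description. Deviations of the same number correlated at 0.62 for replicate 4, and replicate 2 correlated better with number 1 (0.20) than with its own (0.14). At an adjusted p under 0.05, 15.3%, 15.7% and 3.36% of all genes were lower in these comparisons, and since the choice of the genes used them no count is read from that. The choice went by rank among falls with an adjusted p under 0.05, a mean log2 CPM of at least 3 and no overlap. At its edge, place 8 in CaMK2a IP was Arhgap12 at -1.90 ± 0.13 and place 9, outside, was Orai3 at -1.86 ± 0.21. In CaMK2a input Syna at -1.78 ± 0.17 was inside and P2ry12 at -1.73 ± 0.24 outside, and in PV input Fn3k was place 8 at -1.62 ± 0.30 and Syna place 9 at -1.59 ± 0.24. The steps at the edge are far smaller than the errors.

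PV IP is the fraction that played no part in the choice, though its libraries come from the same pools as PV input, and there 1 of the 9 genes, Magee2, fell. With a term for PV replicate 4, Ankrd63, Arhgap12 and Zkscan16 passed as well (adjusted p = 0.034, 0.035 and 0.015 in edgeR), and with PV replicates 1 to 3 only they did not (0.077, 0.1 and 0.078). Magee2 had 59.2, 28.6, 87.8 and 34.5 CPM in the PBS libraries and 10.3, 13, 11.8 and 19.1 CPM after kainic acid, or 52.5 ± 27 and 13.5 ± 3.86 CPM (SD, n = 4). The PBS libraries were spread widely, yet the lowest of them lay above the highest kainic acid library. The log2 change was -1.95 ± 0.36, with adjusted p = 0.003 in edgeR's quasi-likelihood test. It was -2.32 with adjusted p = 0.0013 with PV replicates 1 to 3 only. Lower calls were rare in this fraction, 0.801% of 11107 genes. That Magee2 is among them was known when the genes were chosen.

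Ankrd63 had the largest change in PV IP and did not pass the test. Its levels were 28.2, 12.2, 11.9 and 10.7 CPM after PBS and 4.55, 0, 0.0997 and 1.88 CPM after kainic acid, which stand for 330, 156, 141 and 144 reads against 50, 0, 1 and 31 reads. The groups did not overlap, as in 4.03% of all genes tested, and the log2 change was -3.25 ± 0.91 with adjusted p = 0.051 in edgeR. Without kainic acid IP replicate 1 it was -4.44 with adjusted p = 0.015. Ankrd63 passed under 6 of 17 alternative settings, and its adjusted p reached 0.19 in edgeR or DESeq2. In the authors' deposited table the kainic acid to PBS ratio for Ankrd63 is 0.104 with an FDR of 0.019, from a different edgeR run, and DESeq2 gave an adjusted p of 0.11.

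Arhgap12 had 72.4, 95.5, 109 and 76.1 CPM in PV IP after PBS and 43.9, 76.2, 39.5 and 43.7 CPM after kainic acid, a log2 change of -0.80 ± 0.25 with adjusted p = 0.086 in edgeR. A single kainic acid library, replicate 2, reached into the PBS range. Without it the change was -1.04 with adjusted p = 0.018. Zkscan16 had 39.9, 56.3, 66.5 and 25.3 CPM against 39.5, 15.7, 20 and 7.59 CPM, a log2 change of -1.19 ± 0.42 with adjusted p = 0.14 in edgeR. Without kainic acid IP replicate 1, its highest after kainic acid, it was -1.71 with adjusted p = 0.026. Of 17 alternative settings Arhgap12 passed under 4 and Zkscan16 under 3, and their adjusted p reached 0.25 and 0.35 in edgeR or DESeq2.

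The other 5 genes overlapped between PBS and kainic acid in PV IP and gave edgeR adjusted p-values of 0.46 to 0.89. Syna changed by -1.0 ± 0.60, with 1.82, 3.52 and 3.16 CPM in 3 kainic acid libraries and 13.4 CPM in replicate 3, above 3 of its 4 PBS libraries. Lct changed by -0.57 ± 0.39, St6gal2 by -0.40 ± 0.37, Htr5b by -0.32 ± 0.77 and Tox3 by -0.31 ± 0.23. For Htr5b the level was low before treatment, 2.98 to 8.16 CPM, and the kainic acid libraries ran from 0.698 to 8.1 CPM, so the SE was larger than the change. Tox3 was high throughout, with 77.9, 99, 91.5 and 58.3 CPM after PBS and 76.8, 48, 69.4 and 69.5 CPM after kainic acid. Over the 9 genes the median log2 change in PV IP was -0.80, against -0.02 for all genes. All 9 were negative, as were 51.9% of all genes. At an unadjusted p under 0.05 in edgeR, 4 were lower and 0 higher. The share of all genes at that cut was not counted, so no excess is read from this. Whether a change in PV IP differs from the change of the same gene in another fraction was not tested.

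**Figure D2:**
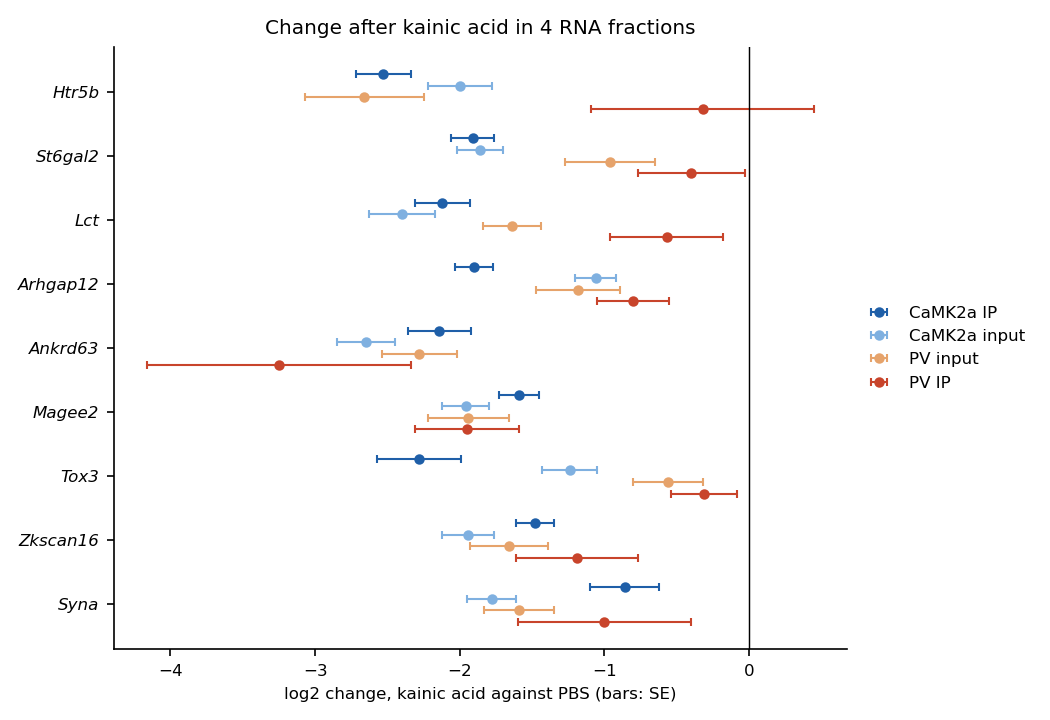
Log2 change after kainic acid against PBS for each gene in the 4 fractions, with bars for the SE. Magee2 lies at about the same depth in CaMK2a input, PV input and PV IP. Htr5b, St6gal2, Lct, Tox3, Arhgap12 and Zkscan16 lie nearer to 0 in PV IP than in both CaMK2a fractions.

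**Figure D3:**
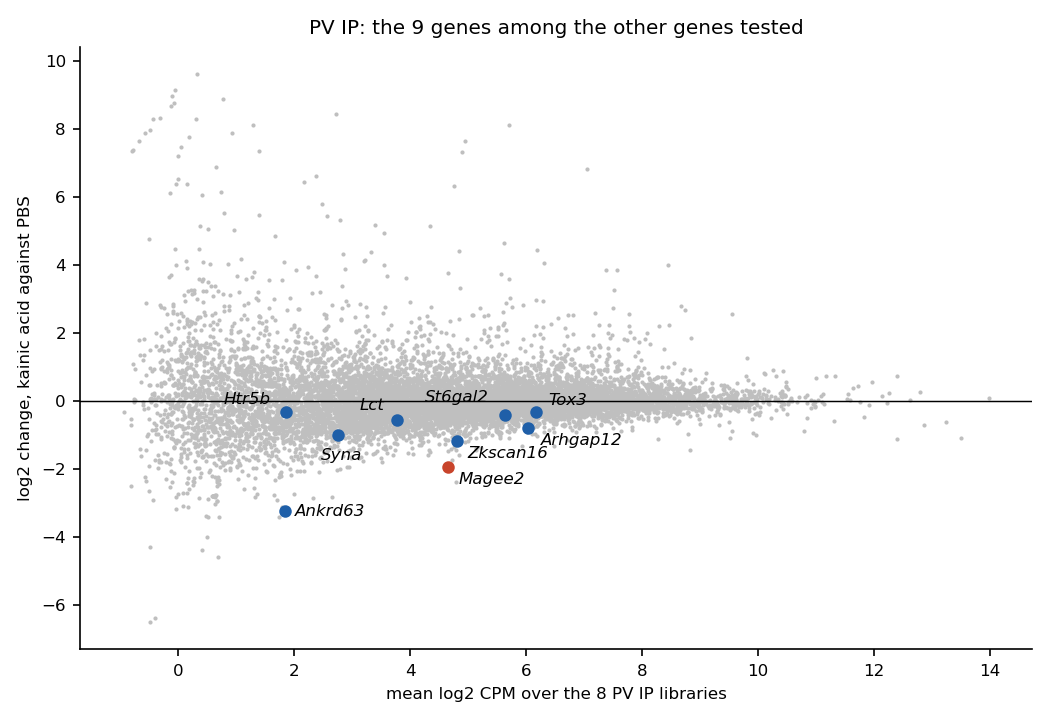
Log2 change in PV IP on the vertical axis against the mean log2 CPM over the 8 PV IP libraries, for 11093 genes tested there and present in all tables (grey) and for the 9 genes (blue, with Magee2, the one that passed the test, in red). Magee2 and Ankrd63 lie at the lower edge of the cloud for genes of their level.

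The comparison of IP with input sets the level of a transcript in the pulled-down RNA against its level in all tissue RNA. The ratio mixes which cells hold the transcript, how much of it sits on ribosomes and RNA of other cells carried along. In the CaMK2a line after PBS, 6 of the 9 genes were higher in IP than in input and 1 was lower, where 32.6% of all genes were higher and 31.6% lower. The PBS libraries compared here are those by which the genes were chosen as falling, so the count is a description. Arhgap12 was higher by 2.59 ± 0.07 on the log2 scale, 6.01-fold (adjusted p = 2.9e-13 in edgeR), from 40.5 ± 1.65 CPM in input to 244 ± 16.4 CPM in IP (SD, n = 3). St6gal2 was 1.94 ± 0.07 higher (7.7e-13) and Ankrd63 1.51 ± 0.10 higher (1.2e-09). Zkscan16, Tox3 and Htr5b followed with 0.75 ± 0.10, 0.47 ± 0.12 and 0.46 ± 0.11, with adjusted p from 4.6e-06 to 0.003. With all groups of the line in 1 fit Tox3 and Htr5b did not pass (adjusted p = 0.08 and 0.056). Syna was lower in IP at -1.30 ± 0.15 (adjusted p = 8.4e-07). Lct and Magee2, at 0.12 ± 0.11 and 0.20 ± 0.12, did not pass the test (0.37 and 0.14), although Magee2 did without PBS input replicate 1 (0.35, adjusted p = 0.019).

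After kainic acid 4 of the 9 genes were higher in CaMK2a IP than in input, Ankrd63 (1.97 ± 0.30, adjusted p = 2.7e-04), St6gal2 (1.85 ± 0.23, 5.2e-05), Arhgap12 (1.70 ± 0.17, 1.7e-05) and Zkscan16 (1.17 ± 0.22, 9.7e-04), and none was lower, against 24.3% and 25.8% of all genes. For lower in IP, 0 of the 9 had an unadjusted p under 0.05 in edgeR and 0 passed in DESeq2. Magee2 had 0.54 ± 0.21 with adjusted p = 0.051, and with the replicate number as a block, which pairs IP and input of a pool, 0.55 with adjusted p = 0.034. Without kainic acid IP replicate 1, Magee2 passed as well (0.62, 0.034), and Tox3, at -0.61 ± 0.36 with adjusted p = 0.18 in all libraries, was lower in IP (-1.02, 0.022). Tox3 had 7.45 CPM in that library and 2.63 and 4.66 CPM in the other 2.

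In the PV line after PBS, Tox3 was the one gene of the 9 that was higher in IP, by 1.92 ± 0.22 (3.77-fold, adjusted p = 3.9e-05 in edgeR), from 22.1 ± 4.44 CPM in input to 81.7 ± 17.8 CPM in IP (SD, n = 4). All 4 IP libraries lay above all 4 input libraries. Htr5b was lower in PV IP at -1.74 ± 0.36 (adjusted p = 0.0042), with 5.12, 8.16, 3.04 and 2.98 CPM in IP against 15.5 to 16.9 CPM in input, and Syna was lower at -1.46 ± 0.26 (0.0015). With all groups of the line in 1 fit Htr5b did not pass (adjusted p = 0.054). Of all genes 10.6% were higher and 7.98% lower. With PV replicates 1 to 3 only, Tox3, Htr5b and Syna were at 1.91, -1.56 and -1.46, all still past the threshold. Lct had -0.68 ± 0.25 with adjusted p = 0.076, with the replicate block -0.70 with adjusted p = 0.035, and without PBS IP replicate 1 -0.89 with adjusted p = 0.025. The remaining 5 genes, Ankrd63, Arhgap12, Magee2, St6gal2 and Zkscan16, lay between -0.37 and 0.25 and did not pass.

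After kainic acid Tox3 was again higher in PV IP than in PV input, by 2.18 ± 0.25 (adjusted p = 1.0e-04 in edgeR), where 6.85% of all genes were higher and 4.11% lower. Arhgap12 had 0.64 ± 0.31, which passed with the replicate block (0.68, adjusted p = 0.044). Syna had -0.86 ± 0.58, and without kainic acid IP replicate 3, where it was high, -1.78 with adjusted p = 0.037. No other gene of the 9 passed in either direction, and Ankrd63, with few reads, had the widest error at -1.27 ± 1.02. For lower in IP, 0 of the 9 had an unadjusted p under 0.05 in edgeR and 0 passed in DESeq2.

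**Figure D4:**
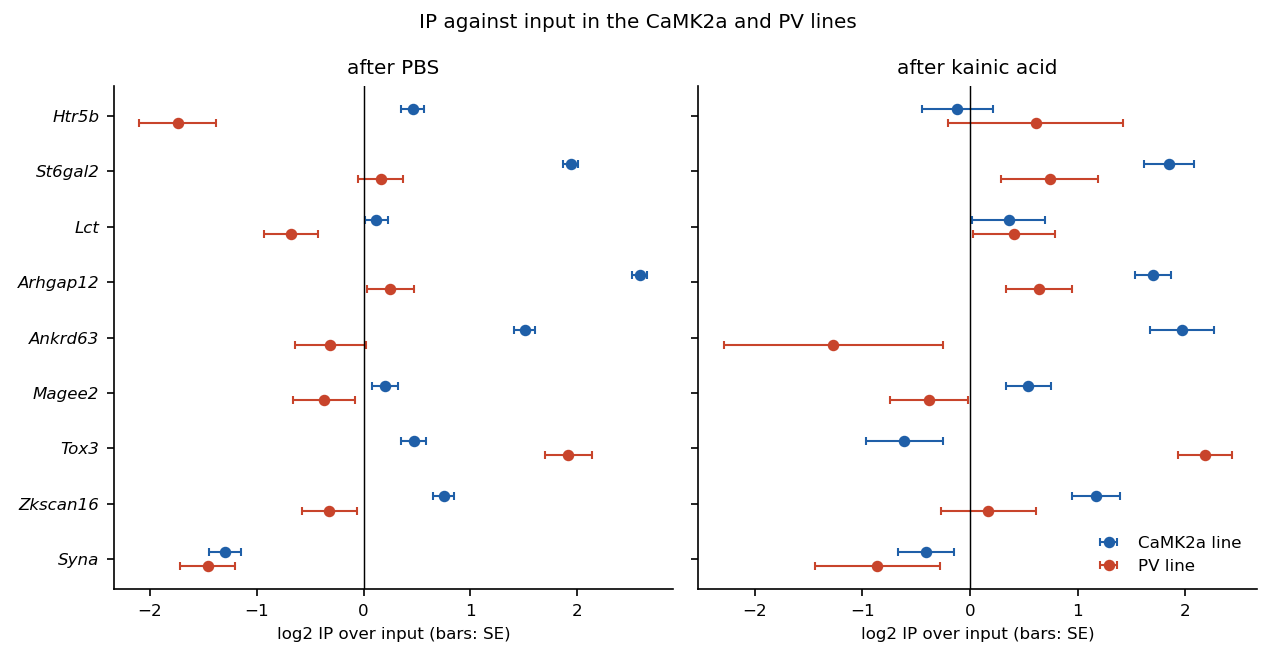
Log2 ratio of IP to input for each gene in the CaMK2a line (blue) and the PV line (red), after PBS on the left and after kainic acid on the right, with bars for the SE. Of the 9 genes, Tox3 alone has a PV value above its CaMK2a value after PBS, and Syna lies below 0 in both lines.

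Whether enrichment in IP differed between the lines after PBS was tested as the difference of the IP to input ratios in 1 fit, a test that was added after the data were seen. Of the 4 groups in it, PV IP alone had no part in the choice of the genes, so its counts and p-values are no independent evidence either. Of the 9 genes 6 had the higher ratio in the CaMK2a line, against 14.3% of 11760 genes, and 1 had the higher ratio in the PV line, against 13.3%. The log2 difference, CaMK2a minus PV, was 2.39 ± 0.28 for Arhgap12 (adjusted p = 9.1e-06 in edgeR), 2.25 ± 0.39 for Htr5b (3.4e-04), 1.87 ± 0.40 for Ankrd63 (0.002) and 1.83 ± 0.25 for St6gal2 (4.2e-05). Zkscan16 followed at 1.12 ± 0.34 (0.021) and Lct at 0.85 ± 0.30 (0.04). Tox3 was the reverse at -1.39 ± 0.28 (0.0014). Magee2, at 0.63 ± 0.40, and Syna, at 0.23 ± 0.32, did not pass (0.27 and 0.64). Lct missed the threshold when PV replicate 4 was left out (0.65, adjusted p = 0.085), with upper-quartile scaling, or without any one of 10 of the 14 PBS libraries (0.72 to 0.88, adjusted p 0.05 to 0.11). Zkscan16 did not pass without CaMK2a PBS input replicate 2 (1.08, 0.052), CaMK2a PBS input replicate 3 (1.07, 0.054) or CaMK2a PBS IP replicate 1 (1.08, 0.053). Magee2 passed without PV PBS IP replicate 3 (1.00, 0.028).

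Across the 8 groups the order of mean levels also differed between the genes. The 2 lines differ in the amount of RNA amplified, and their PBS inputs differ as well. Slc17a7 had a mean of 1210 CPM in the CaMK2a line and 730 CPM in the PV line, and Pvalb 27.9 and 11.9 CPM. In an order across lines a difference of line and one of library preparation cannot be told apart. The PBS groups of CaMK2a IP, CaMK2a input and PV input served the choice of the genes, which favours high places for them, so the order is a description. Ankrd63, Arhgap12, Htr5b, Lct and St6gal2 were highest in CaMK2a IP after PBS, and for all of these except Lct that group lay apart from the next. Magee2 and Zkscan16 were highest in PV input after PBS, at 69.1 ± 10.8 and 59.8 ± 8.8 CPM (SD, n = 4), and overlapped with the next group. Tox3 was highest in PV IP after PBS and next in PV IP after kainic acid, at 81.7 ± 17.8 and 65.9 ± 12.4 CPM, which overlapped with each other and lay apart from the other 6 groups. Syna was highest in CaMK2a input and PV input after PBS, at 34.8 ± 3.07 and 30.6 ± 1.89 CPM, which overlapped with each other and lay apart from the next.

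Between genes, levels were compared per length, as CPM per kilobase of listed length. In CaMK2a IP after PBS, Arhgap12 had 48.3 ± 3.25 and St6gal2 39.2 ± 1.77 CPM per kilobase (SD, n = 3), above 90.8% and 88.4% of all genes. Magee2 followed with 25.4 ± 2.88, Htr5b with 17.7 ± 2.31 and Ankrd63 with 16.3 ± 1.08, and Syna was last with 3.48 ± 0.789 CPM per kilobase. After kainic acid Arhgap12 and St6gal2 still led with 12.2 ± 2.26 and 9.84 ± 2.49 CPM per kilobase, and Tox3 was last with 0.916 ± 0.452. In PV IP after PBS Magee2 led with 22.7 ± 11.7 CPM per kilobase (SD, n = 4), and after kainic acid Tox3 led with 12.3 ± 2.32 while Ankrd63 was last with 0.336 ± 0.438.

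The relatives of these genes did not share one direction. Serotonin receptors other than Htr5b were measured well enough to test in CaMK2a IP for 10 genes, of which 2 rose and 2 fell, with a median log2 change of 0.01 as over all genes. Htr1a, an inhibitory receptor, fell by 0.99 on the log2 scale (SE 0.13, adjusted p = 3.2e-04 in edgeR), from 66.3 to 31.6 CPM in the mean, and Htr2c fell by 0.30 (SE 0.11, 0.049). Htr2a and Htr4 rose by 0.89 ± 0.19 and 0.64 ± 0.16 (0.0053 and 0.01). In PV IP 0 of 10 passed in edgeR, 3 higher and 1 lower had an unadjusted p under 0.05, and DESeq2 called 2 higher and 1 lower.

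Of 14 sialyltransferase genes other than St6gal2, 2 rose and 3 fell in CaMK2a IP. St8sia2, which builds polysialic acid, rose by 2.05 ± 0.35 (adjusted p = 0.0016 in edgeR), from 4.16 to 15.8 CPM, and St6galnac4 rose by 0.85 ± 0.24 (0.023). St8sia6 changed by -1.56 ± 0.20 (3.3e-04) and St3gal2 by -0.55 ± 0.11 (0.0044). In PV IP 1 of the 14, St6galnac5, fell, with -0.79 ± 0.21 (0.036). The median of the list in CaMK2a IP was -0.16 against 0.01 for all genes.

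Of 25 GTPase-activating protein genes other than Arhgap12, taken from the Arhgap, Srgap and Chn families, 3 rose and 9 fell in CaMK2a IP, with a median of -0.12. Arhgap31 and Arhgap19 rose by 2.11 ± 0.42 and 1.05 ± 0.31 (adjusted p = 0.0037 and 0.024 in edgeR), and Arhgap24 and Arhgap15 changed by -1.42 ± 0.34 and -1.06 ± 0.22 (0.0095 and 0.0049), both from levels under 10 CPM. In PV IP 0 of 25 passed in edgeR, 1 higher and 1 lower had an unadjusted p under 0.05, and DESeq2 called 1 lower. Of 27 ankyrin repeat genes other than Ankrd63, 7 rose and 4 fell in CaMK2a IP, among them Ankrd33b, which rose by 1.23 ± 0.11 there and by 1.60 ± 0.25 in PV IP (2.5e-05 and 7.8e-04), Ankrd55 (1.94 ± 0.47), Ankrd13a (1.04 ± 0.25) and Ankrd13d (-1.04 ± 0.21).

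In the smaller families, Tox4 rose by 0.70 ± 0.12 in CaMK2a IP (adjusted p = 0.002 in edgeR) and the other 2 TOX genes tested there did not pass. Of 8 other Zkscan genes Zkscan3 rose by 0.84 ± 0.23 (0.017) and Zkscan8 changed by -0.44 ± 0.14 (0.036). Of 5 other MAGE genes 0 passed in CaMK2a IP in edgeR and in DESeq2, with 3 lower at an unadjusted p under 0.05, and of 3 relatives of lactase 0 passed in either tool, with 0 at an unadjusted p under 0.05. Arc and Peg10 derive, like Syna, from retroelements, but not from envelope sequence. They rose in CaMK2a IP by 3.31 ± 0.21 and 3.29 ± 0.27 (adjusted p = 4.2e-06 and 1.9e-05 in edgeR), opposite in sign to Syna. In PV IP they rose by 3.87 ± 0.21 and 2.44 ± 0.23 (8.9e-09 and 3.0e-06), again opposite in sign to Syna. The counts of these lists stand beside 19.8% of all genes higher and 15.3% lower in CaMK2a IP, and 4.05% higher and 0.801% lower in PV IP.

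Correlations with other genes over the 28 libraries, which share treatment, line and fraction, are descriptions. Tox3 was most like Klf12 and Nav1 (Pearson r of log2 CPM 0.95 and 0.94 among 10222 genes), Arhgap12 most like Tmcc1 and Usp46 (0.94 and 0.93), Zkscan16 most like D430041D05Rik and Nhsl2 (0.93 and 0.92), Ankrd63 most like Cecr6 and Keap1 (0.92 and 0.90) and Htr5b most like Prrt1 and Dcaf7 (0.92 and 0.89). St6gal2 was most like Olfm1 and Rab11b (0.90 and 0.89), Lct most like Dnajc6 and Pnma2 (0.89 for both), Magee2 most like Ccdc85a and Pcyox1 (0.88 and 0.87) and Syna most like Pik3ip1 and Aamdc (0.88 for both). No gene of the 9 was among the 2 most like another of them. Among the 36 pairs of the 9 genes r ran from -0.17 for Ankrd63 with Tox3 to 0.84 for Arhgap12 with St6gal2, with a median of 0.58.

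Markers of cell types were also compared between the treatments. Of 9 oligodendrocyte markers 1 was higher in CaMK2a input, and 0 passed in edgeR in CaMK2a IP, PV input or PV IP. Of 9 astrocyte markers 1 was higher in CaMK2a IP, 2 in CaMK2a input and 0 in PV input or PV IP. None of either list was called lower. The median log2 change of the astrocyte list was 0.51 in CaMK2a IP, 0.13 in CaMK2a input, 0.05 in PV input and -0.04 in PV IP. For the oligodendrocyte list it was 0.15, 0.16, 0.08 and -0.01. In CaMK2a input 4 of 10 PV interneuron markers were higher and 1 lower. Of 10 endothelial and mural markers 4 were higher and 1 lower there, and of 10 microglia markers 3 and 2. These lists had fewer calls in the other fractions. The shares of all genes are given below with the other lists. The summed level of 11 CA1 pyramidal markers went from 13265 to 15043 CPM in CaMK2a IP after PBS down to 10422 to 12547 CPM after kainic acid, with 4 of 11 lower (15.3% of all genes) and none higher. In the inputs the same list went from 10294 to 11858 CPM down to 8797 to 9427 CPM in the CaMK2a line, again with 4 of 11 lower (15.7% of all genes), and from 10131 to 11044 CPM down to 8851 to 9275 CPM in the PV line, with 3 lower (3.36%). In PV IP it overlapped, at 5075 to 5874 CPM after PBS and 4135 to 7114 CPM after kainic acid, with 1 of 11 lower (0.801%). Camk2a alone holds much of this sum. In CaMK2a input Camk2a went from a mean of 7142 CPM to 5541 CPM, while the median sum went from 10921 to 9329 CPM. The median log2 change of the 11 genes was -0.17 in CaMK2a IP, -0.18 in CaMK2a input, -0.16 in PV input and 0.14 in PV IP. Markers of interneurons other than PV cells summed to 272 to 352 CPM in CaMK2a IP after PBS and to 757 to 1451 CPM after kainic acid, with 3 of 8 higher (19.8% of all genes). In PV IP they went from 519 to 639 CPM up to 1222 to 1491 CPM, without overlap and with 2 of 8 higher (4.05%). The inputs moved the same way, from 1117 to 1284 CPM up to 1612 to 2467 CPM in the CaMK2a line, with 2 of 8 higher (19.3%) and 1 lower, and from 977 to 1081 CPM up to 1497 to 1874 CPM in the PV line, with 2 of 8 higher (8.21%). The median log2 change of these 8 genes was 0.46 in CaMK2a IP, 0.17 in CaMK2a input, 0.07 in PV input and 0.17 in PV IP. These changes are smaller than those of the sums, which the most abundant genes dominate. Dentate granule cell markers overlapped in their sum in CaMK2a IP, at 452 to 638 and 559 to 645 CPM, while 3 of 9 were higher and 3 lower. In CaMK2a input 2 of these 9 were higher and 4 lower, with a median log2 change of -0.39. No marker of these lists was at 0 in any group. The part of cell composition in the falls of the 9 genes was not tested.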

How the data were processed

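Messenger RNA was sequenced in 28 libraries of 8 groups. Per the submitters' processing notes reads were aligned to mm10 (GRCm38) with BWA and compared with edgeR, versions not given in the sources used here. The deposited tables hold whole counts of reads per gene, which were the values tested here, beside the authors' RPKM columns, their CPM column, a fold change given as a linear ratio of kainic acid to PBS or of IP to input, and the p-value and FDR (a q-value) of the authors' edgeR run. Of these only the ratio and FDR of 1 gene are quoted. Higher and lower genes were deposited apart and were joined into 6 tables of 13384 to 14033 genes, whose 189281 shared values were equal.

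Counts were tested with edgeR 4.0.16 in R 4.3.3: TMM scaling, filterByExpr with a minimum count of 10, a quasi-likelihood test per comparison over all genes kept, prior count 0.125 and Benjamini-Hochberg adjustment at 0.05. The SE is the log2 change divided by the square root of F. All 9 genes passed the filter in every comparison. Depth was 6.06 to 15.8 M counts per library, and few reads widen the errors given. Intervals and errors cover pools, not single mice.

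IP and input of 1 number share a lysate per the labels, so the number pairs them, and in these comparisons the blocked value stands beside each result whose call it changes. For kainic acid against PBS, same-numbered deviations correlated above 0.1 in every pair in PV input (0.14 to 0.62), and not in PV IP (0.04 to 0.36) or the CaMK2a fractions. Alternatives were RLE and upper-quartile factors, no filter, a stricter filter, DESeq2 1.42.0, the block, all groups of a line, PV replicate 4 left out or given a term, and each library left out. The scripts were tested on simulated data.

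The genes named besides the 9 are the falls at places 8 and 9 of each comparison used in the choice, the 2 genes most like each gene by Pearson r, at most 4 changed genes of each family list by size of change in CaMK2a IP or PV IP, and Camk2a, Slc17a7, Pvalb, Gad1 and Fos as checks. The genes, the family and marker lists and the tests were chosen with earlier results of these data known, and the difference between the lines was added after the data were seen. Promoter windows come from RefSeq, GRCm38.p6, and exon overlaps from GENCODE M21. Those of Arhgap12, Htr5b and Zkscan16 were not analysed here. One gene of a family list is not reported here.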

Additional observations from a re-analysis of the deposited data

Results flagged for a closer look

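In the PV groups of 4 libraries, 36 in all over the 9 genes, 4 had a library far from the other 3 by Dixon's test at the 95% level, where chance alone gives about 1 in 20 groups. Ankrd63 in PV IP after PBS had 28.2 CPM in replicate 1 and 10.7 to 12.2 CPM in the others. Arhgap12 in PV IP after kainic acid had 76.2 CPM in replicate 2 and 39.5 to 43.9 CPM in the others. Syna in PV IP after kainic acid had 13.4 CPM in replicate 3 and 1.82 to 3.52 CPM in the others. Htr5b in PV input after PBS had 15.5 CPM in replicate 3 and 16.7 to 16.9 CPM in the others, a group with a narrow spread. Of the 4 libraries, 3 are of PV IP, and no 2 of these 3 are the same library.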

How the results depend on the processing

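The median log2 change of the 9 genes kept its sign under every alternative, and with 1 library left out it ran from -2.07 to -1.85 in CaMK2a IP, -1.99 to -1.84 in CaMK2a input, -1.74 to -1.53 in PV input and -0.95 to -0.68 in PV IP. The number lower in PV IP, 1 in the fit reported, depended on the settings: it was 2 without a filter, with the stricter filter, in DESeq2 and with all groups of the line in 1 fit, 4 with a term for PV replicate 4, and 1 to 3 with 1 library left out. There Magee2 passed under all 17 alternatives (adjusted p 5.0e-06 to 0.018), Ankrd63 under 6 of 17, Arhgap12 under 4 and Zkscan16 under 3. In CaMK2a IP over input after kainic acid Magee2 passed under 6 of 13. With 1 library left out, the number higher in IP was 6 to 7 and 4 to 5 in the CaMK2a line after PBS and kainic acid and 1 in the PV line, the number lower in IP was 1, 0 to 1, 2 to 3 and 0 to 1 in CaMK2a after PBS, CaMK2a after kainic acid, PV after PBS and PV after kainic acid, and the lines differed in 4 to 6 genes higher and 1 lower. With all groups of the line in 1 fit 1 gene was lower in PV IP than input after PBS, since Htr5b did not pass (-1.75, adjusted p = 0.054), and in the CaMK2a line Htr5b and Tox3 did not pass (0.47 and 0.48, adjusted p = 0.056 and 0.08). The cause was not tested.

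With the replicate number as a block, 4 genes were lower in PV IP: Ankrd63 (-4.13, adjusted p = 0.0034), Arhgap12 (-0.82, 0.022), Magee2 (-1.85, 0.0021) and Zkscan16 (-1.34, 0.013). There same-numbered libraries share only a number, and each correlated best with its own number. The pairing of IP with input gave 2 genes higher in PV IP after kainic acid. Beside the values given with the results, the block changed no other call of the 9 genes.

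Values that had not passed changed sign only where 1 library was left out. Htr5b in PV IP then ran from -0.98 to 0.05 and was above 0 without PV kainic acid IP replicate 3 (0.02) or PV PBS IP replicate 2 (0.05). Htr5b in CaMK2a IP over input after kainic acid ran from -0.30 to 0.26, above 0 without input replicate 1 (0.26) or IP replicate 2 (0.04), and in the PV line from -0.04 to 0.97, below 0 without IP replicate 1. Zkscan16 in PV IP over input after kainic acid ran from -0.35 to 0.46, below 0 without input replicate 4 (-0.06) or IP replicate 1 (-0.35). With the stricter filter Htr5b was not tested there. Depth limits values that rest on few reads, such as Ankrd63 in PV IP after kainic acid, with 0 to 50 reads per library.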
